A study of Mus musculus with 62 samples.

Results

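The genes described here are the cannabinoid receptor CB1 (Cnr1) and the enzymes that make or break down its lipid ligands (Dagla, Daglb, Mgll, Abhd6, Abhd12, Napepld and Faah). They were taken by gene name and make up 8 of the 56415 genes in the deposited count table. RNA sequencing of polyA RNA was done on 5 brain regions of male C57BL/6J mice aged 8 to 10 weeks: dorsal (dHPC) and ventral hippocampus (vHPC), dorsal (DS) and ventral striatum (VS), and cortex, each taken as a core from frozen coronal slices. Every mouse was injected intraperitoneally with ethanol at 2 g/kg or with the same volume of saline, either once (acute) or daily for 10 days (chronic), and was killed 4 hours after the last injection. The groups thus share strain, sex and the injections, and none of them is uninjected. The 62 libraries come from 16 mice and fall into 20 groups of 3 or 4 libraries, 1 group for each region, paradigm (acute or chronic) and treatment.

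Endocannabinoids are lipids that neurons make on demand and that act backwards across the synapse, on CB1 receptors of the presynaptic terminal, to lower transmitter release. 2-arachidonoylglycerol (2-AG) is made from diacylglycerol by the lipases encoded by Dagla and Daglb and is hydrolysed by the products of Mgll, Abhd6 and Abhd12. Anandamide can be released from its membrane precursor by the phospholipase encoded by Napepld, and it is hydrolysed by fatty acid amide hydrolase, encoded by Faah.

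Promoter sequences in a RefSeq table of build GRCm38.p6 matched 6 of the 8 genes; Dagla and Abhd12 had no entry. Shown are the 250 bases before a RefSeq start of Faah, the gene that passed the test after ethanol, of Napepld, whose pattern over regions was most like that of Faah among these genes, and of Cnr1, whose pattern was unlike both. Each run is written 5′ to 3′ on the strand of its gene, and capitals mark the motifs found. By exact match to GRCm39 they lie at chr4:115875122-115875371 (Faah, minus strand), chr5:21906621-21906870 (Napepld, minus strand) and chr4:33924394-33924643 (Cnr1, plus strand).
Faah: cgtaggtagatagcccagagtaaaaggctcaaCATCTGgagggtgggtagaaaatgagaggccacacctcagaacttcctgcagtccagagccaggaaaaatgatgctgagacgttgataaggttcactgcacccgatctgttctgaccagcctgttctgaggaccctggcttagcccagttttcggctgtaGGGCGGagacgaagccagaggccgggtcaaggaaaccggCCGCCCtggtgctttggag
Napepld: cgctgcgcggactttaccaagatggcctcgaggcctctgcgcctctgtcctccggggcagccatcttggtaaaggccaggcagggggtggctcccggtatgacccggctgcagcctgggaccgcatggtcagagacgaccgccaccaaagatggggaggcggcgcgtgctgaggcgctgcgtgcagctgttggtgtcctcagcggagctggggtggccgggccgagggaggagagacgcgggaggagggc
Cnr1: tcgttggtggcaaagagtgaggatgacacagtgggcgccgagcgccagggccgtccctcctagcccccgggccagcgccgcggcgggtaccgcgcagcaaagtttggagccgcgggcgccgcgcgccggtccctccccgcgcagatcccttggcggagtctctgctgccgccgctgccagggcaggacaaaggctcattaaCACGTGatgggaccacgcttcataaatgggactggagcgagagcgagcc
Both strands were searched for the letters of 6 motifs. The GC box was GGGCGG and the TATA box was TATAAA. The CCAAT box was searched by the letters of its name, and the short form of the cAMP response element was TGACG. The canonical E-box was CACGTG, and the E-box of NeuroD factors was CAGATG. Faah held 2 copies of the GC box, which 32.7% of all 32851 promoters of this length hold, and 1 copy of CAGATG, held by 14.4%. The Cnr1 window shown held 1 copy of CACGTG, held by 6.02% of all promoters, and none of the 6 motifs was in the Napepld window. The table has 3 starts of Cnr1, and the windows differ: that at chr4:33924014-33924263 held 5 GC boxes and no CACGTG at 79.2% G and C, and that at chr4:33926130-33926379 held no motif at 49.2%. The TATA box, the CCAAT box and the cAMP element are in 12.4%, 33.8% and 17.8% of all promoters and in none of these windows. The G and C content was 55.6% for Faah, 69.6% for Napepld and 68.8% for the Cnr1 window shown, and the median over all promoters was 52.4%.

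Total gene counts ran from 43173748 to 71164766 per library in cortex and dHPC and from 9689502 to 46564992 in the vHPC, DS and VS libraries that were used. Cortex and dHPC libraries were made with a kit that does not record strand (batch 1) and the others with a directional kit (batch 2). Per the study's methods these sets also differ in sequencing platform and read length. Region and batch thus cannot be told apart between them. Chronic saline replicate 2 of the DS has no counts on the rest of chromosome 6 past a point, nor on chromosomes 7, 8, 9, X, Y and MT. It lists Mgll at 0, and the other genes described here lie on chromosomes that hold counts. With a total of 8149628 the library was left out, which leaves 2 libraries in that group. As a check of the labelled tissue, in CPM (counts of a gene scaled to library size), 9 markers of striatal projection neurons summed to 2624 CPM or more in every DS and VS library and to 491 or less in cortex. In marker sums several libraries stood apart from their groups. Striatal markers summed to 2935 CPM in chronic saline replicate 5 of the dHPC, 1631 in chronic ethanol replicate 5 of the vHPC and 1290 in acute ethanol replicate 4 of the vHPC. Acute saline replicate 6 of the vHPC was low in dentate (77.7) and myelin markers (2460), chronic saline replicate 5 of the VS low in pallial markers (50.5) and chronic saline replicate 6 of the VS high in choroid plexus markers (2895). The labels number the mice, but p-values measure only the spread between these samples.

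To compare genes with each other, CPM was divided by exon length, which gives CPM per kilobase (CPM/kb). In saline mice Abhd12 (chr2:150674413-150746661, minus strand, GRCm39), a serine hydrolase that also breaks down lysophosphatidylserine, had the highest level of the 8 genes in all 5 regions, from 76.7 ± 5.54 CPM/kb in DS (SD, n = 5) to 88.7 ± 3.25 in cortex (SD, n = 6). Mgll (chr6:88701394-88805342, plus strand), the main 2-AG hydrolase of brain, came next in cortex, dHPC, vHPC and VS, and Cnr1 in DS at 47.7 ± 12.6 CPM/kb (SD, n = 5). Napepld (chr5:21867899-21906394, minus strand) was lowest in 4 regions, down to 1.48 ± 0.205 CPM/kb in VS (SD, n = 6), and Daglb in vHPC. Libraries of Abhd12 lay above those of the next gene in every region. Some other neighbours in the order overlapped, among them Mgll and Dagla in dHPC and vHPC, Cnr1 and Mgll in DS and VS, Cnr1 and Abhd6 in cortex, dHPC, vHPC and VS, and Daglb and Napepld in dHPC and DS. Others did not overlap, such as Mgll and Dagla in cortex, Abhd6 and Faah in DS, and Dagla and Faah in VS.

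**Figure D1:**
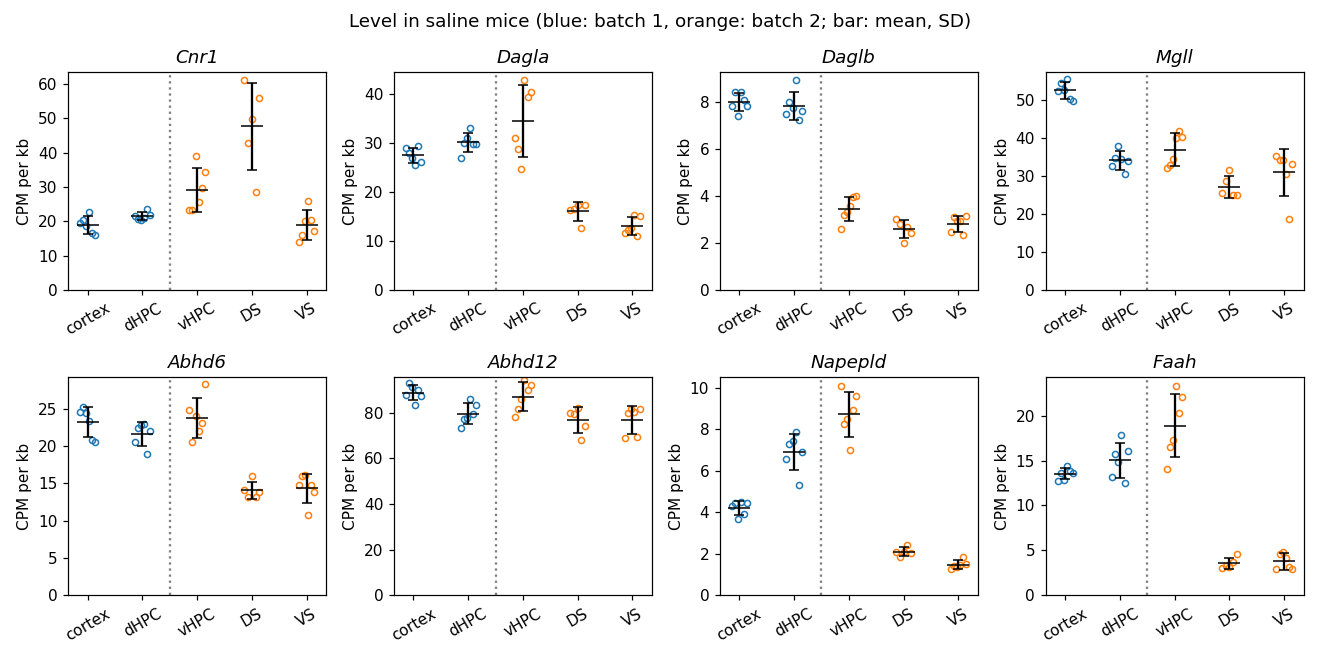
Level of each gene in saline mice in CPM per kilobase, by region. Circles are libraries (6 a region, 5 in DS), blue for batch 1 and orange for batch 2, and black bars give the mean and SD. Faah and Napepld are lower in DS and VS than in vHPC, and Cnr1 is higher in DS than in VS.

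Regions were compared within a batch in saline mice, by edgeR's log2 fold change with the false discovery rate (FDR), the p-value adjusted over all genes tested, and a gene passed below 0.1. Cortex and dHPC differed in 6 of 8 genes (55.3% of all 27224 genes), DS and VS in 2 of 8 (9.88%), vHPC and DS in 8 of 8 (41.6%) and vHPC and VS in 7 of 8 (39.1%). Only some mice gave both regions, 4 for cortex and dHPC and 5 for each other pair. Where a fit with the mouse as a block changed a call its FDR is given.

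Cnr1 (chr4:33924593-33948831, plus strand) is transcribed in striatal projection neurons and in many interneurons. In saline libraries it ran from 28.6 to 61.1 CPM/kb in DS and from 13.9 to 26.00 in VS, without overlap. The log2 fold change of DS over VS was 1.35 ± 0.18 (SE, FDR = 0.00224). vHPC, at 23.2 to 38.97 CPM/kb, overlapped both, and was lower than DS (-0.70 ± 0.19, FDR = 0.0108) and higher than VS (0.63 ± 0.15, FDR = 0.00464). Cortex (15.9 to 22.7 CPM/kb) was below dHPC (20.2 to 23.7), with a log2 fold change of -0.21 ± 0.077 (FDR = 0.0397). The coding isoforms Cnr1-201 and Cnr1-202 had means of 52.6 and 50.9 CPM/kb in DS.

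Dagla (chr19:10222629-10282241, minus strand), the main 2-AG synthase of adult brain, was higher in vHPC than in striatum. It ran from 24.6 to 42.9 CPM/kb in vHPC, from 12.7 to 17.4 in DS and from 11.1 to 15.4 in VS, with vHPC above both. The log2 fold change was 1.05 ± 0.13 over DS (FDR = 3.09e-05) and 1.38 ± 0.098 over VS (FDR = 1.26e-07). Cortex was below dHPC, with -0.15 ± 0.052 (FDR = 0.0286), a call that the mouse block ended (-0.066, FDR = 0.388). DS over VS gave 0.31 ± 0.11 (FDR = 0.104), and passed without chronic saline replicate 3 of the DS (0.0165), chronic saline replicate 3 of the VS (0.0690) and chronic saline replicate 6 of the VS (0.0623). It also passed with DESeq2 (FDR = 0.0546). In edgeR it passed with at least 10 counts required in every sample (FDR = 0.0823) and without a low-count filter (FDR = 0.00504).

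Daglb (chr5:143450339-143491697, plus strand), the other diacylglycerol lipase, was higher in vHPC than in DS (0.38 ± 0.12, FDR = 0.0258) and than in VS (0.27 ± 0.11, FDR = 0.0625). The VS call was lost with the mouse block (FDR = 0.109) and without acute saline replicate 4 of the vHPC (0.102), acute saline replicate 6 of the vHPC (0.106), acute saline replicate 2 of the VS (0.116), chronic saline replicate 3 of the vHPC (0.122), chronic saline replicate 6 of the vHPC (0.132), chronic saline replicate 3 of the VS (0.107) and chronic saline replicate 5 of the VS (0.124). Its mean level was 7.99 and 7.83 CPM/kb in cortex and dHPC but 3.45, 2.59 and 2.82 in vHPC, DS and VS. Its end overlaps that of Rac1, a small GTPase gene on the other strand, over 2309 exon bases (GENCODE vM39, chr5:143489389-143491697), and Rac1 had means of 219.9 to 259 CPM in every region. Isoforms on and off this stretch are set side by side here, across batches. Daglb-201, which reaches it, had 16.04, 15.9, 6.85, 5.12 and 5.47 CPM/kb in cortex, dHPC, vHPC, DS and VS. Daglb-203, which ends before it, had 4.38, 3.50, 3.65, 2.72 and 2.94 CPM/kb in the same regions. Libraries that do not record strand cannot separate reads of Daglb and Rac1 there, so the Daglb values of cortex and dHPC are uncertain.

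**Figure D2:**
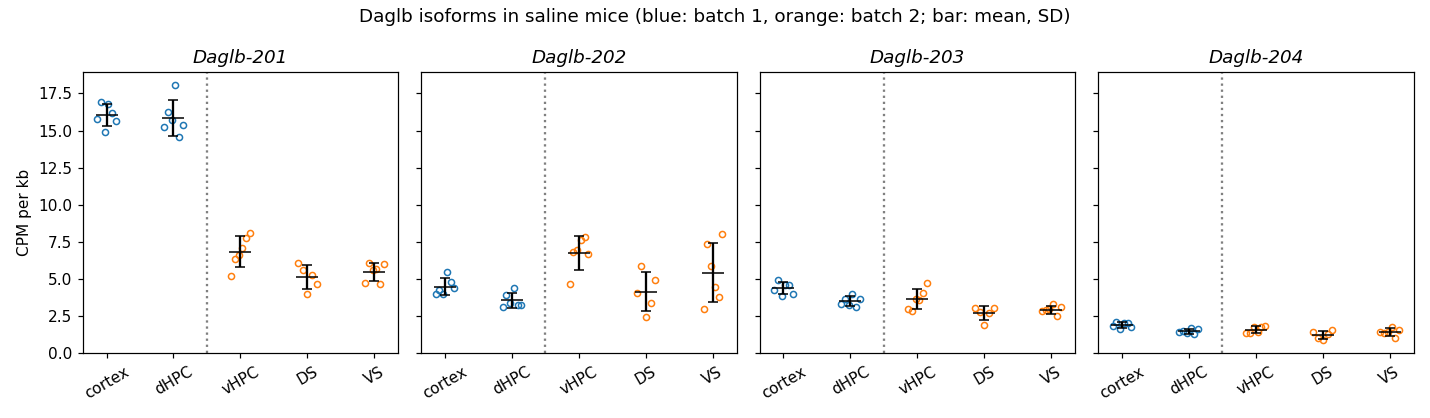
Level of the 4 Daglb isoforms in saline mice in CPM per kilobase, by region. Circles are libraries, blue for batch 1 and orange for batch 2, and black bars give the mean and SD. Daglb-201, the isoform that overlaps Rac1, averages 16.04 in cortex and 6.85 in vHPC.

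Mgll was higher in cortex (49.6 to 55.5 CPM/kb) than in dHPC (30.6 to 37.97), by 0.60 ± 0.046 (FDR = 6.45e-08). vHPC exceeded DS by 0.43 ± 0.090 (FDR = 0.00212, or 0.657 with the incomplete library that lists Mgll at 0), and over VS gave 0.24 ± 0.13 (FDR = 0.187). DS against VS gave -0.21 ± 0.12 (FDR = 0.327), and passed with the mouse block (-0.30, FDR = 0.0260), without a low-count filter (0.0618) and without chronic saline replicate 5 of the VS (0.0177). Abhd6 (chr14:14413010-14466871, minus strand), a membrane-bound 2-AG hydrolase, was higher in vHPC than in DS (0.76 ± 0.094, FDR = 2.83e-05) and than in VS (0.73 ± 0.10, FDR = 7.51e-05), without overlap, and cortex over dHPC gave 0.078 ± 0.055 (FDR = 0.260). Abhd12 differed by 0.14 ± 0.044 between cortex and dHPC (FDR = 0.0141). It differed by 0.18 ± 0.071 between vHPC and DS (FDR = 0.0719) and 0.17 ± 0.065 between vHPC and VS (FDR = 0.0631), and the mouse block ended both calls (FDR = 0.202 and 0.186), as did testing without a low-count filter (0.119 and 0.163). The DS call of Abhd12 was also lost with the incomplete DS library (0.171) and without chronic saline replicate 2 of the vHPC (0.1249), chronic saline replicate 6 of the vHPC (0.121), chronic saline replicate 3 of the DS (0.187) and chronic saline replicate 6 of the DS (0.154), and the VS call without acute saline replicate 6 of the vHPC (0.106), acute saline replicate 2 of the VS (0.131), chronic saline replicate 2 of the vHPC (0.117), chronic saline replicate 6 of the vHPC (0.114) and chronic saline replicate 5 of the VS (0.121).

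Between vHPC and striatum the widest differences were those of the anandamide enzymes. Faah (chr4:115824342-115875123, minus strand) ran from 14.04 to 23.3 CPM/kb in vHPC, from 3.07 to 4.60 in DS and from 2.88 to 4.88 in VS, so that vHPC libraries lay far above both striatal regions. vHPC exceeded DS by 2.35 ± 0.082 (FDR = 1.27e-09) and VS by 2.30 ± 0.16 (FDR = 9.89e-08), and DS against VS gave -0.072 ± 0.16 (95% interval -0.42 to 0.27). Napepld ran from 7.01 to 10.1 CPM/kb in vHPC, from 1.84 to 2.45 in DS and from 1.27 to 1.87 in VS. Its log2 fold change was 2.06 ± 0.12 for vHPC over DS (FDR = 2.84e-08), 2.55 ± 0.12 for vHPC over VS (FDR = 2.95e-09) and 0.53 ± 0.13 for DS over VS (FDR = 0.0349, or 0.167 with the incomplete DS library). Cortex was below dHPC for Napepld (-0.73 ± 0.084, FDR = 4.09e-06) and for Faah (-0.17 ± 0.068, FDR = 0.0508). The Faah call was lost with the mouse block (FDR = 0.253) and without acute saline replicate 4 of the dHPC (0.130) and chronic saline replicate 2 of the dHPC (0.130).

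Likeness of pattern was described by Pearson's r over 20 group means of log2 CPM, centred within batch, among 17927 genes; the groups share batches, and no test was made. Faah was most like Sphkap (r = 0.99) and Arhgef25 (0.99), Napepld like Nt5dc3 (0.99) and Nck2 (0.98), and Dagla like Mtmr12 (0.98) and Adora1 (0.97). Abhd6 was most like Rtn4rl1 (0.96) and Zfp251 (0.96), Daglb like Mfsd4a (0.95) and Bend3 (0.94), and Mgll like Tubg2 (0.94) and Sirpa (0.93). Nearest to Cnr1 were Cadm2 (0.93) and Ccnd2 (0.93), and nearest to Abhd12 were Retreg2 (0.93) and Eipr1 (0.92). Among the 8 genes Napepld and Faah were closest (r = 0.94), and Cnr1 had 0.074 with Faah and -0.40 with Mgll.

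Ethanol was compared with saline within each region and paradigm, and values are CPM of each library scaled within that comparison, to which statements on overlap refer. How many of all genes separate without overlap was not counted in any comparison, so these statements only describe the libraries. Faah in DS after acute ethanol was 12.7, 14.7 and 15.6 CPM in ethanol and 23.8, 24.7 and 24.6 CPM in saline libraries. All ethanol libraries lay below all saline libraries. It fell by 0.76 on the log2 scale (SE 0.12, 95% interval -1.01 to -0.50, edgeR FDR = 0.00268, DESeq2 FDR = 1.66e-05), and kept the call in 6 of 6 fits that each left out a library. In this comparison, edgeR called 1 of 8 genes (5.15% of all 20495 genes). An unadjusted p under 0.05 was found for 3 of 8 (15.5% of all genes, namely Cnr1, Napepld and Faah), and DESeq2 called 1 (6.4%, namely Faah). The other estimates here were -0.15 ± 0.072 for Dagla, -0.24 ± 0.14 for Daglb, 0.072 ± 0.091 for Mgll, -0.097 ± 0.11 for Abhd6 and 0.027 ± 0.061 for Abhd12. In the fit of all 4 DS groups Faah had FDR = 0.0513.

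Markers of pallial excitatory neurons, the glutamatergic cells of cortex and hippocampus, moved with Faah. Of these markers 7 of 7 were lower and passed in this comparison (median log2 fold change -3.26, against 0.0038 over all genes), and they summed to 18.1 to 103 CPM in ethanol and 397 to 489.7 CPM in saline libraries. The 5 markers of cholecystokinin interneurons, cells rich in CB1, summed to 30.3 to 39.7 against 70.1 to 95.9 CPM, with 3 of 5 lower, 2 higher and 2 past the test. Other marker lists with all tested members on 1 side of 0 were striatal projection neuron (9 of 9 higher, 8 past the test, summed 8060 to 8486 against 6282 to 7282 CPM), choroid plexus (8 of 8 higher, 2 past the test, summed 75.2 to 825 against 24.7 to 306 CPM) and endothelial (4 of 4 lower, 0 past the test, summed 108 to 135 against 129.9 to 147 CPM). No pallial or cholecystokinin marker was at 0, and the part of these cells in the Faah and other estimates was not tested. In tissue RNA, fewer cells of a type and less RNA per cell cannot be told apart.

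After chronic ethanol in DS, Faah was 17.4, 14.6, 20.4 and 12.1 CPM in ethanol and 29.1 and 35.9 CPM in saline libraries, again without overlap. The log2 fold change was -1.002 ± 0.20 (95% interval -1.46 to -0.54, FDR = 0.346), and DESeq2 (FDR = 0.00579) and the fit of all 4 DS groups (FDR = 0.0290) called it, each with 2 chronic saline libraries. Here, edgeR called 0 of 8 genes (0% of all 19844 genes). Unadjusted p-values were under 0.05 for 1 of 8 (7.53% of all genes, namely Faah), and DESeq2 called 1 (0.776%, namely Faah). Estimates with no call were -0.062 ± 0.14 for Dagla, 0.15 ± 0.12 for Mgll, 0.062 ± 0.12 for Abhd6, 0.097 ± 0.10 for Abhd12, -0.17 ± 0.14 for Daglb and -0.44 ± 0.24 for Napepld, all with overlap of the groups. Pallial markers summed to 23.5 to 156 CPM in ethanol and 406 to 606 in saline libraries. The other lists with all tested members on 1 side were striatal projection neuron (9 of 9 higher, 0 past the test, summed 5852 to 9355 against 4660 to 6549 CPM), thalamic neuron (5 of 5 higher, 0 past the test, summed 22.8 to 104 against 29.8 to 31.8 CPM), choroid plexus (8 of 8 lower, 0 past the test, summed 23.5 to 3101 against 1945 to 7174 CPM), myelin (8 of 8 lower, 0 past the test, summed 6461 to 8858 against 9415 to 9677 CPM) and endothelial (4 of 4 higher, 0 past the test, summed 142 to 154 against 119 to 141 CPM), and the part of these cells was not tested. The interaction, the chronic minus the acute ethanol effect, was -0.24 ± 0.24 for Faah (FDR = 0.973). For the DS interaction, edgeR called 0 of 8 genes (0% of all 21049 genes). Below an unadjusted p of 0.05 were 0 of 8 (4.16% of all genes), and DESeq2 called 0 (0.019%).

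Faah in VS after acute ethanol was 15.3, 20.7 and 24.3 CPM in ethanol and 23.97, 37.6 and 39.6 CPM in saline libraries, with a small overlap. The log2 fold change was -0.75 ± 0.22 (FDR = 0.437, DESeq2 FDR = 0.0997). Chronic ethanol gave 18.8, 23.9 and 16.7 CPM against 33.8, 25.5 and 23.5 CPM, which overlapped (-0.48 ± 0.18, FDR = 0.428). Pallial markers summed to 14.8 to 119 CPM in acute ethanol and 314 to 789 in acute saline libraries, and to 10.6 to 70.3 and 50.5 to 710.2 in the chronic ones. Of other lists, those with all tested members on 1 side were dentate granule neuron (3 of 3 higher, 0 past the test, summed 15.7 to 26.8 against 14.9 to 15.5 CPM) after acute ethanol. After chronic ethanol they were striatal projection neuron (9 of 9 higher, 0 past the test, summed 5293 to 5356 against 3212 to 5737 CPM), dentate granule neuron (5 of 5 lower, 0 past the test, summed 10.2 to 13.4 against 22.5 to 31.4 CPM), choroid plexus (6 of 6 lower, 0 past the test, summed 35.2 to 41.3 against 24.7 to 2895 CPM), myelin (8 of 8 lower, 0 past the test, summed 4051 to 5573 against 5436 to 7459 CPM) and meningeal fibroblast (4 of 4 lower, 0 past the test, summed 12.2 to 19.04 against 11.5 to 20.03 CPM), and the part of these cells was not tested. Chronic saline replicate 5 holds the low end of the pallial range in saline, and without it chronic Faah gave -0.53 (FDR = 0.239). After acute ethanol in VS, edgeR called 0 of 8 genes (0.0399% of all 20032 genes). The unadjusted p was under 0.05 for 3 of 8 (7.32% of all genes, namely Cnr1, Daglb and Faah), and DESeq2 called 1 (0.889%, namely Faah). After chronic ethanol in VS, edgeR called 0 of 8 genes (0% of all 20331 genes). An unadjusted p under 0.05 was found for 2 of 8 (9.95% of all genes, namely Mgll and Faah), and DESeq2 called 0 (1.79%). For the VS interaction, edgeR called 0 of 8 genes (0% of all 20901 genes). Unadjusted p-values were under 0.05 for 0 of 8 (4.62% of all genes), and DESeq2 called 0 (0.0191%).

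**Figure D3:**
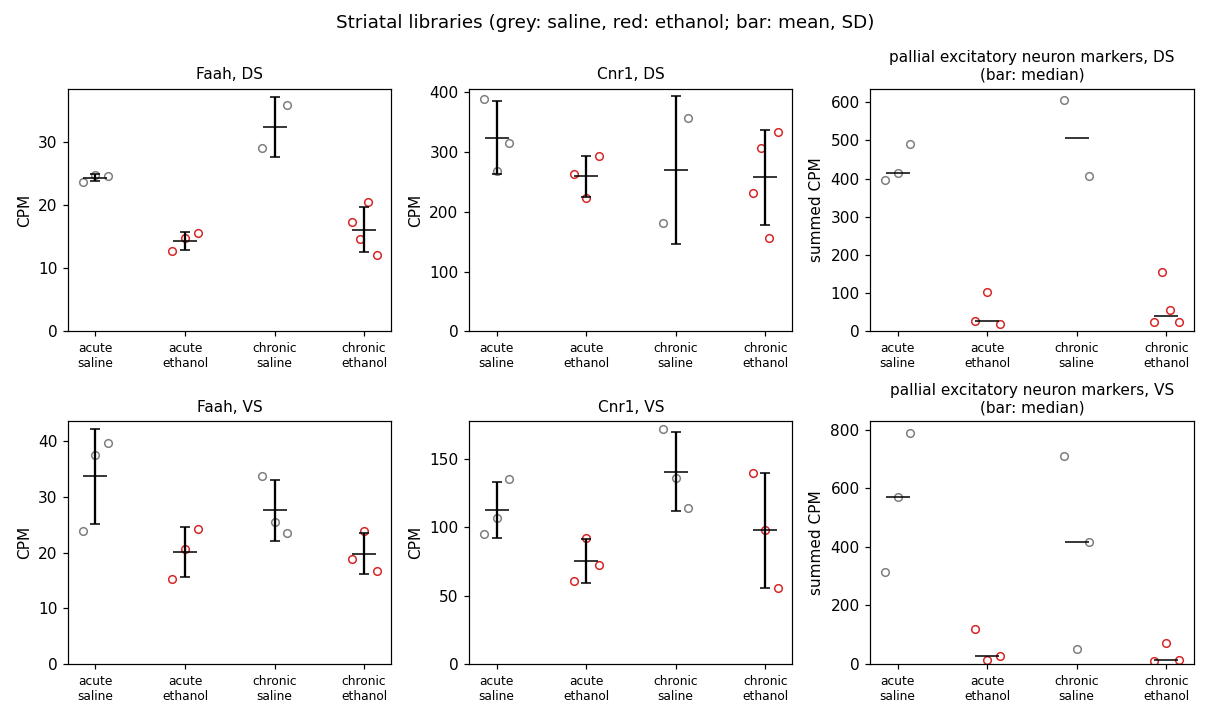
CPM of Faah and Cnr1 and summed CPM of 7 pallial excitatory neuron markers in DS and VS libraries, by paradigm and treatment. Grey circles are saline and red circles ethanol libraries; bars give mean and SD for the genes and the median for the markers. Acute ethanol libraries of the DS lie below acute saline libraries for Faah and for the marker sum.

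Cnr1 did not pass after ethanol in any region in the main fits. Without the low-count filter Cnr1 passed after acute ethanol in DS (edgeR FDR = 0.000884) and in VS (edgeR FDR = 0.0013). The log2 fold changes in those fits were -0.30 and -0.58, near those of the main fits. The share of all genes that passed without the filter is not given. In VS after acute ethanol Cnr1 was 61.1, 92.3 and 72.6 CPM against 95.1, 107 and 135 CPM in saline libraries, without overlap. The log2 fold change was -0.58 ± 0.17 (95% interval -0.96 to -0.20, FDR = 0.449, DESeq2 FDR = 0.115). In DS after acute ethanol it was 263, 224 and 293 CPM against 389, 269 and 315 CPM, which overlapped (-0.32 ± 0.12, FDR = 0.207), and it passed without acute saline replicate 4 of the DS (0.0691). Chronic ethanol gave -0.53 ± 0.28 in VS (FDR = 0.577) and -0.067 ± 0.32 in DS (FDR = 0.974), where the saline libraries stood apart at 182 and 358 CPM. Estimates in cortex were -0.054 ± 0.052 (acute) and -0.052 ± 0.13 (chronic), and in dHPC -0.078 ± 0.081 and -0.033 ± 0.081. In vHPC they were -0.019 ± 0.20 and -0.32 ± 0.16 (FDR = 0.551 for the latter).

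In vHPC the estimates of Dagla had opposite signs in the paradigms. After acute ethanol Dagla was 197, 181 and 233 CPM in ethanol and 178, 165 and 139.6 CPM in saline libraries (0.34 ± 0.12, FDR = 0.350). After chronic ethanol it was 175, 146 and 176 CPM against 246, 226 and 234 CPM (-0.51 ± 0.10, FDR = 0.199, DESeq2 FDR = 0.00284). Ethanol libraries lay above saline libraries in the acute and below them in the chronic comparison, without overlap. The chronic difference passed without chronic ethanol replicate 4 of the vHPC (0.0653). The interaction was -0.85 ± 0.16 (95% interval -1.20 to -0.50, FDR = 0.289, DESeq2 FDR = 0.00471), and it passed without acute saline replicate 6 of the vHPC (0.0877) and acute ethanol replicate 4 of the vHPC (0.0904).

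Mgll in vHPC was 188, 156 and 200.4 CPM in acute ethanol and 162, 166 and 173 CPM in acute saline libraries, which overlapped (0.12 ± 0.10, FDR = 0.679). In the chronic comparison it was 166, 153 and 162 CPM against 202, 212 and 206 CPM, without overlap (-0.37 ± 0.085, FDR = 0.253, DESeq2 FDR = 0.0265), and it passed without chronic ethanol replicate 4 of the vHPC (0.0999). Its interaction was -0.49 ± 0.13 (FDR = 0.296, DESeq2 FDR = 0.0370). Faah and Abhd12 gave the same signs as Dagla. Faah was 147, 126 and 184 CPM against 109.7, 129 and 134 CPM (acute, 0.30 ± 0.14) and 144, 104 and 139 CPM against 182, 159 and 175 CPM (chronic, -0.41 ± 0.13, FDR = 0.406). Chronic ethanol libraries of Faah lay below saline, and the interaction was -0.71 ± 0.20 (FDR = 0.296, DESeq2 FDR = 0.0576). Abhd12 gave 0.098 ± 0.080 (acute), -0.22 ± 0.084 (chronic, FDR = 0.467) and an interaction of -0.32 ± 0.11 (FDR = 0.319, DESeq2 FDR = 0.0758). The interactions of Daglb, Abhd6, Napepld and Cnr1 were -0.26 ± 0.16, -0.038 ± 0.16, 0.095 ± 0.21 and -0.30 ± 0.29.

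After acute ethanol in vHPC, edgeR called 0 of 8 genes (0% of all 19916 genes). Below an unadjusted p of 0.05 were 1 of 8 (11.9% of all genes, namely Dagla), and DESeq2 called 0 (2.9%). After chronic ethanol in vHPC, edgeR called 0 of 8 genes (0.0555% of all 19814 genes). The unadjusted p was under 0.05 for 4 of 8 (9.51% of all genes, namely Dagla, Mgll, Abhd12 and Faah), and DESeq2 called 2 (1.08%, namely Dagla and Mgll). For the vHPC interaction, edgeR called 0 of 8 genes (0% of all 20618 genes). An unadjusted p under 0.05 was found for 4 of 8 (11.5% of all genes, namely Dagla, Mgll, Abhd12 and Faah), and DESeq2 called 4 (2.02%, namely Dagla, Mgll, Abhd12 and Faah). Tissue marker sums differed between these groups too. Lists with all tested members on 1 side were striatal projection neuron (9 of 9 higher, 0 past the test, summed 326 to 1290 against 389 to 557 CPM), thalamic neuron (5 of 5 lower, 0 past the test, summed 27.2 to 136 against 86.2 to 575 CPM), dentate granule neuron (5 of 5 higher, 0 past the test, summed 307 to 498 against 77.7 to 249.6 CPM), myelin (8 of 8 lower, 0 past the test, summed 3095 to 7991 against 2460 to 8847 CPM), microglia (6 of 6 higher, 0 past the test, summed 212 to 228 against 175 to 204 CPM) and meningeal fibroblast (4 of 4 lower, 0 past the test, summed 18.5 to 39.7 against 34.6 to 69.1 CPM) after acute ethanol. After chronic ethanol they were striatal projection neuron (9 of 9 higher, 0 past the test, summed 343 to 1631 against 291 to 484 CPM), choroid plexus (8 of 8 higher, 4 past the test, summed 898 to 3216 against 26.5 to 208 CPM), myelin (8 of 8 higher, 0 past the test, summed 4792 to 9368 against 3300 to 5693 CPM) and endothelial (4 of 4 lower, 0 past the test, summed 98.4 to 105 against 116 to 130.3 CPM). Of the pallial list 4 were lower and 3 higher after chronic ethanol, 0 past the test, with sums of 1393 to 1932 against 2070 to 2440 CPM. The part of these cells in the estimates was not tested.

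Without chronic ethanol replicate 5, the vHPC library with the most striatal marker counts, the chronic log2 fold changes were -0.42 for Dagla (FDR = 0.485), -0.34 for Mgll (FDR = 0.657), -0.28 for Faah (FDR = 0.769) and -0.19 for Abhd12 (FDR = 0.836). Acute estimates without ethanol replicate 4 were 0.42 for Dagla (FDR = 0.271), 0.22 for Mgll (FDR = 0.366), 0.42 for Faah (FDR = 0.276) and 0.13 for Abhd12 (FDR = 0.577). Leaving out acute saline replicate 6 gave acute estimates of 0.25 for Dagla (FDR = 0.320), 0.14 for Mgll (FDR = 0.545), 0.35 for Faah (FDR = 0.290) and 0.12 for Abhd12 (FDR = 0.476). These estimates kept their signs in each case, and none of them passed.

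**Figure D4:**
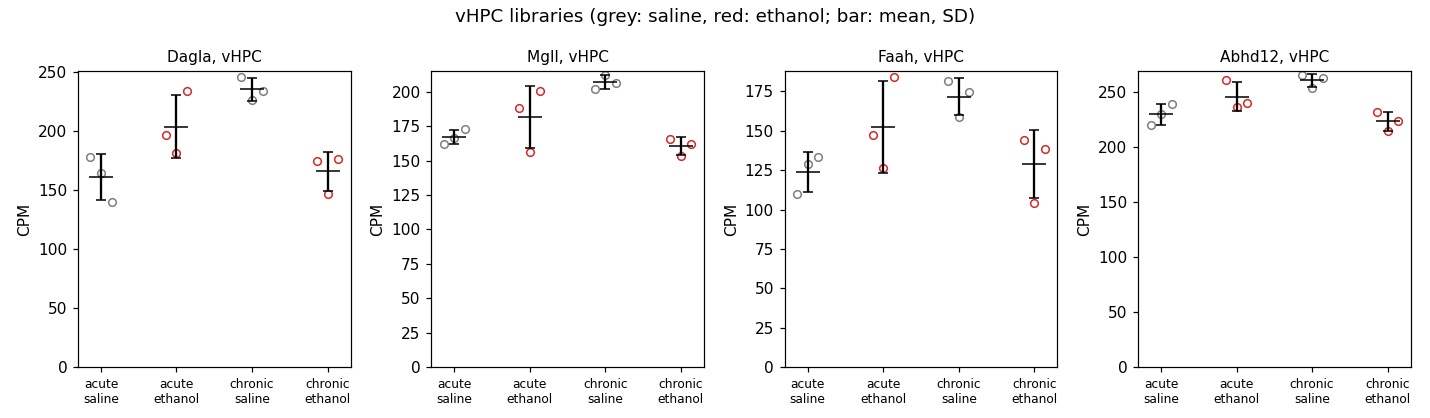
CPM of Dagla, Mgll, Faah and Abhd12 in vHPC libraries, by paradigm and treatment. Grey circles are saline and red circles ethanol libraries, and bars give mean and SD. Dagla is above saline after acute ethanol and below saline after chronic ethanol in every library.

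Napepld in dHPC was 42.3, 32.2, 36.2 and 34.5 CPM in acute ethanol and 26.8, 29.4 and 30.1 CPM in acute saline libraries (0.33 ± 0.090, FDR = 0.359, DESeq2 FDR = 0.0736). In the chronic comparison it was 37.1, 33.4 and 45.1 CPM against 31.5, 21.6 and 27.6 CPM (0.52 ± 0.15, FDR = 0.566, DESeq2 FDR = 0.0714). Ethanol libraries lay above saline libraries in both, without overlap. Chronic Dagla was 231, 209 and 208 CPM against 192, 175 and 173 CPM (0.26 ± 0.070, FDR = 0.566, DESeq2 FDR = 0.0924), and acute Dagla gave 0.22 ± 0.085 (FDR = 0.585). Chronic Faah was 163, 152 and 156 CPM against 141, 100.04 and 127 CPM (0.35 ± 0.11, FDR = 0.566), and chronic Mgll and Abhd6 gave 0.22 ± 0.069 and 0.22 ± 0.078. For Dagla, Faah, Mgll and Abhd6 the chronic ethanol libraries were above all saline libraries, and the share of all genes that separate so was not counted. Chronic saline replicate 5, the library with striatal markers, had the lowest Napepld value, and without it Napepld gave 0.38, Dagla 0.24, Faah 0.22, Mgll 0.17 and Abhd6 0.14 (FDR = 0.977 for each). After acute ethanol in dHPC, edgeR called 0 of 8 genes (0.042% of all 26215 genes). Unadjusted p-values were under 0.05 for 2 of 8 (7.88% of all genes, namely Dagla and Napepld), and DESeq2 called 1 (1.07%, namely Napepld). After chronic ethanol in dHPC, edgeR called 0 of 8 genes (0% of all 25958 genes). Below an unadjusted p of 0.05 were 5 of 8 (8.23% of all genes, namely Dagla, Mgll, Abhd6, Napepld and Faah), and DESeq2 called 2 (0.859%, namely Dagla and Napepld). For the dHPC interaction, edgeR called 0 of 8 genes (0% of all 26850 genes). The unadjusted p was under 0.05 for 0 of 8 (4.48% of all genes), and DESeq2 called 0 (0.00745%). Marker lists of the dHPC with all tested members on 1 side were striatal projection neuron (9 of 9 lower, 0 past the test, summed 412 to 737 against 689.6 to 1059 CPM), thalamic neuron (5 of 5 higher, 0 past the test, summed 108 to 252 against 68.00 to 141 CPM), endothelial (4 of 4 lower, 0 past the test, summed 86.2 to 128 against 113.2 to 123 CPM) and meningeal fibroblast (4 of 4 lower, 0 past the test, summed 17.01 to 29.4 against 23.03 to 30.1 CPM) after acute ethanol. In the chronic comparison they were striatal projection neuron (9 of 9 lower, 0 past the test, summed 265 to 402 against 302 to 2935 CPM), dentate granule neuron (5 of 5 higher, 0 past the test, summed 401 to 564 against 228 to 385 CPM), choroid plexus (8 of 8 lower, 0 past the test, summed 33.9 to 1614 against 39.98 to 2705 CPM) and myelin (8 of 8 lower, 0 past the test, summed 5228 to 5932 against 6469 to 7431 CPM), and the part of these cells was not tested.

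Cortex estimates lay between -0.11 and 0.25 on the log2 scale over both paradigms. Napepld after acute ethanol was 19.1, 17.9 and 19.7 CPM against 16.5, 17.1 and 14.2 CPM, without overlap (0.25 ± 0.087, FDR = 0.243). Abhd12 after chronic ethanol was 263, 282 and 292 CPM against 228, 246 and 242 CPM, also without overlap (0.22 ± 0.080, FDR = 0.443). Faah gave 0.039 ± 0.054 (acute) and -0.0073 ± 0.086 (chronic). After acute ethanol in cortex, edgeR called 0 of 8 genes (1.99% of all 25905 genes). An unadjusted p under 0.05 was found for 1 of 8 (12.5% of all genes, namely Napepld), and DESeq2 called 0 (3.69%). After chronic ethanol in cortex, edgeR called 0 of 8 genes (0% of all 25644 genes). Unadjusted p-values were under 0.05 for 1 of 8 (10.4% of all genes, namely Abhd12), and DESeq2 called 0 (0.608%). For the cortex interaction, edgeR called 0 of 8 genes (0% of all 26540 genes). Below an unadjusted p of 0.05 were 2 of 8 (8.19% of all genes, namely Abhd12 and Napepld), and DESeq2 called 0 (0.0791%). Cortex marker lists with all tested members on 1 side were striatal projection neuron (9 of 9 lower, 2 past the test, summed 394 to 426 against 429.9 to 491 CPM), myelin (8 of 8 higher, 5 past the test, summed 2310 to 3066 against 1971 to 2234 CPM), endothelial (4 of 4 lower, 1 past the test, summed 116 to 131 against 135 to 145 CPM) and meningeal fibroblast (4 of 4 lower, 2 past the test, summed 25.4 to 29.7 against 33.5 to 39.6 CPM) after acute ethanol. After chronic ethanol in cortex they were myelin (8 of 8 higher, 0 past the test, summed 2058 to 3147 against 1207 to 2621 CPM) and meningeal fibroblast (4 of 4 lower, 0 past the test, summed 13.4 to 31.2 against 20.2 to 38.3 CPM), and the part of these cells was not tested.

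Mgll in VS after chronic ethanol was 183, 202 and 197 CPM against 159, 99.1 and 174 CPM, without overlap (0.43 ± 0.18, FDR = 0.479), and gave 0.22 without chronic saline replicate 5 (FDR = 0.274). Without chronic saline replicate 6 of the VS, the library with choroid plexus markers, the chronic estimates were 0.59 for Mgll, -0.58 for Faah and 0.16 for Abhd12. Napepld has few counts in striatum, from 54 in its lowest library. In DS after acute ethanol it was 5.18, 5.56 and 5.93 CPM against 8.19, 7.09 and 8.01 CPM, without overlap (-0.47 ± 0.18, FDR = 0.221), and in VS 5.43, 5.41 and 10.6 against 5.35, 5.85 and 5.68 CPM, 1 ethanol library standing far above the others (0.35 ± 0.29). Abhd12 in VS after chronic ethanol lay above saline without overlap (0.11 ± 0.088, FDR = 0.735, or 0.037 without chronic saline replicate 5), and Dagla gave -0.16 ± 0.11 (acute) and -0.18 ± 0.13 (chronic) there. Daglb after acute ethanol gave -0.11 ± 0.059 in cortex and -0.069 ± 0.048 in dHPC, both with the Rac1 limit above, and gave -0.39 ± 0.17 in VS (FDR = 0.661). Over the 10 ethanol comparisons the estimates ran from -0.097 to 0.23 for Abhd6, from -0.39 to 0.030 for Daglb and from -0.22 to 0.22 for Abhd12, and none of these passed.

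**Figure D5:**
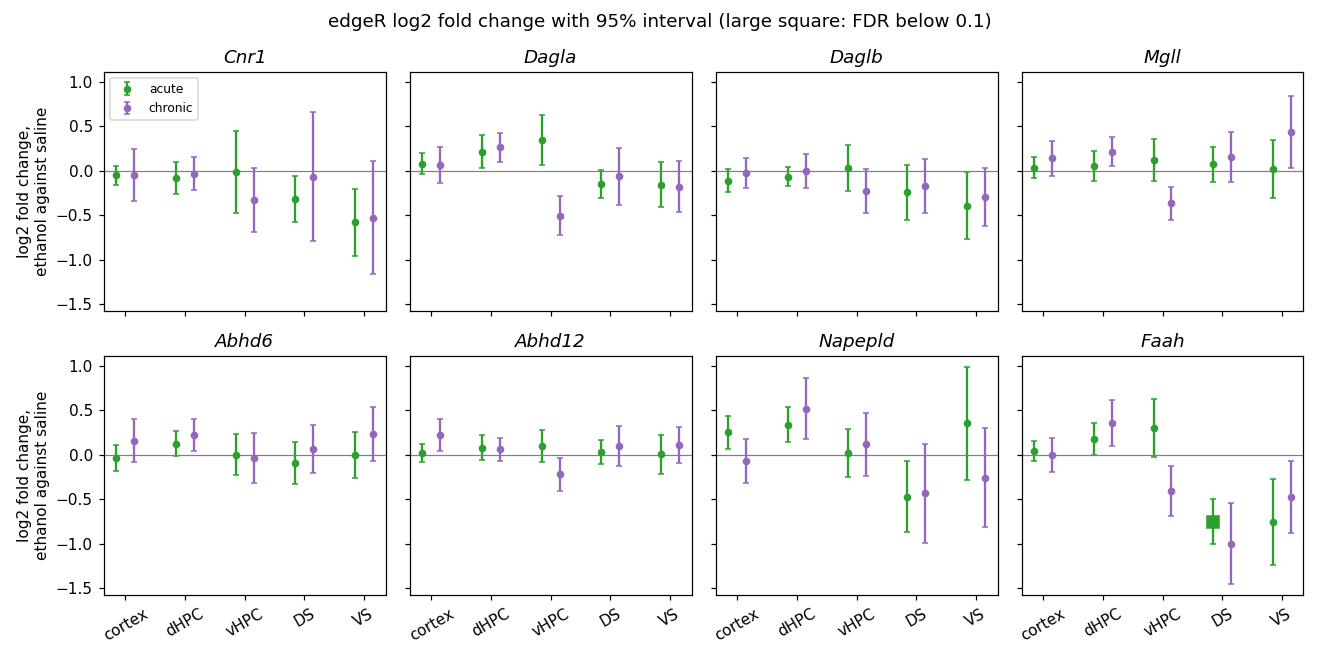
Log2 fold change of ethanol against saline with its 95% interval from edgeR, by gene, region and paradigm (green acute, purple chronic). Large squares mark FDR below 0.1; the only such point is Faah in acute DS at -0.76.

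At the level of isoforms, 6 of 39 isoforms passed in DS after acute ethanol (3.59% of all 108989 isoforms), all of them of Faah and lower. The coding isoform Faah-201 was 4.31 ± 0.436 CPM with ethanol and 7.41 ± 0.188 CPM with saline (SD, n = 3 each), a log2 fold change of -0.77 ± 0.12 (edgeR FDR = 0.00102). Faah-205 and Faah-208 did not pass (edgeR FDR = 0.210 and 0.128). A read was counted for every isoform it overlaps, so isoforms of a gene are not separate observations. Over the other 9 comparisons together, 351 isoform tests gave 0 edgeR calls (0.181% of all isoform tests), 104 with unadjusted p under 0.05 (8.79%) and 18 DESeq2 calls (0.926%).

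Other genes of the pathway were taken as a list of 34 receptors, binding proteins, G proteins, enzymes and lipid carriers. In DS after acute ethanol 1 of 28 tested passed, where 5.15% of all genes did: Plcb4, a phospholipase C that supplies diacylglycerol. It was 31.8 ± 1.69 CPM with ethanol and 43.7 ± 1.33 CPM with saline (SD, n = 3 each), a log2 fold change of -0.45 ± 0.085 (edgeR FDR = 0.0101). The median of the list there was -0.030, against 0.0038 over all genes. Of the 28, 10 had an unadjusted edgeR p under 0.05 (15.5% of all genes), and DESeq2 called 3 (6.4%). edgeR called 0 of the list in each of the other 9 ethanol comparisons (0% to 1.99% of all genes), with list medians from -0.15 to 0.057. In these, 0 to 8 had an unadjusted edgeR p under 0.05 (7.32% to 12.5% of all genes). DESeq2 called 0 to 4 (0.608% to 3.69%). The highest counts, 8 and 4 of 28 tested, were in vHPC after acute ethanol, where the shares of all genes were 11.9% and 2.9%. Ptgs2, which oxidises endocannabinoids, had the lowest estimate in VS after acute ethanol (2.35 ± 0.653 against 6.49 ± 2.39 CPM, -1.46 ± 0.33, edgeR FDR = 0.289).

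Between regions of saline mice, of the genes of the list tested 12 were higher and 12 lower of 30 for cortex against dHPC (55.3% of all genes passed), 2 were higher and 3 lower of 28 for DS against VS (9.88%), 6 were higher and 7 lower of 29 for vHPC against DS (41.6%) and 3 were higher and 6 lower of 29 for vHPC against VS (39.1%), by edgeR's test. Cnrip1, whose product binds the tail of CB1, was lower in DS than in VS (-0.41, FDR = 0.0403) and higher in vHPC than in DS (1.23, FDR = 6.15e-07), where Cnr1 had the other sign in both. Cnrip1 was also higher in vHPC than in VS (0.82, FDR = 4.69e-05) and lower in cortex than in dHPC (-0.16, FDR = 0.0551). There Cnr1 had the same sign in both. Ptgs2 was higher in vHPC than in DS (2.75, FDR = 1.87e-06) and VS (3.07, FDR = 5.48e-07). Plaat1, an N-acyltransferase of the anandamide precursor pathway, was lower in vHPC than in DS (-1.12, FDR = 3.76e-05) and VS (-1.28, FDR = 1.18e-05), opposite in sign to Napepld.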

How the data were processed

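The deposited tables hold read counts per gene and per isoform. Per the labels, the authors used cutadapt 5.0 for trimming, STAR 2.7.10a for alignment (GRCm39) and featureCounts 2.0.6 for the counts, and per the study's methods reads overlapping several features, and reads mapping to several places, were counted for each. Strand was used in counting although the cortex and dHPC kit does not record it, which touches overlapping genes such as Daglb and Rac1.

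Counts were tested with edgeR 4.0.16 (quasi-likelihood test, TMM, in R 4.3.3) for each feature that reached 5 counts in 2 or more libraries of 1 group, with Benjamini-Hochberg adjustment over all features tested and a threshold of 0.1. DESeq2 1.42.0, other filters and scaling, leaving out each library, and blocks were alternatives. The scripts were tested on simulated data. Regions were compared with paradigm as a covariate. Of the mice, 4 gave both cortex and dHPC, and 5 gave both regions of each other pair. The deviations of the 2 libraries of such a mouse had r from 0.032 to 0.20 (cortex and dHPC), -0.033 to 0.29 (DS and VS), -0.075 to 0.071 (vHPC and DS) and -0.086 to 0.14 (vHPC and VS). All 8 genes were tested in every comparison, though not every estimate is printed. Of the pathway list those that passed or had the highest or lowest estimate could be named. The genes and lists were chosen with earlier results of these data known. Coordinates are GRCm39, and promoter sequences are from RefSeq. The number of libraries, 3 or 4 a group and 2 in DS chronic saline, limits precision, beside total counts of 9689502 to 71164766 per library.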

Additional observations from a re-analysis of the deposited data

Results flagged for a closer look

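In some pairs of regions, every ethanol library of a gene lay above all saline libraries in 1 region and below all of them in the other, in CPM scaled within each comparison. The difference between regions was not tested, and no estimate given here passed the edgeR test (FDR in parentheses). The pairs were picked by this separation, and how many of all genes separate so was not counted. For Dagla in DS the separation does not hold when all libraries are scaled together. Dagla after acute ethanol had a log2 fold change of 0.34 in vHPC (0.350) and -0.15 in DS (0.344), 0.49 apart. Napepld after acute ethanol had a log2 fold change of 0.25 in cortex (0.243) and -0.47 in DS (0.221), 0.72 apart. Napepld after acute ethanol had a log2 fold change of 0.33 in dHPC (0.359) and -0.47 in DS (0.221), 0.81 apart. Dagla after chronic ethanol had a log2 fold change of 0.26 in dHPC (0.566) and -0.51 in vHPC (0.199), 0.77 apart. Mgll after chronic ethanol had a log2 fold change of 0.22 in dHPC (0.566) and -0.37 in vHPC (0.253), 0.58 apart. Mgll after chronic ethanol had a log2 fold change of 0.43 in VS (0.479) and -0.37 in vHPC (0.253), 0.80 apart. Abhd12 after chronic ethanol had a log2 fold change of 0.22 in cortex (0.443) and -0.22 in vHPC (0.467), 0.45 apart. Abhd12 after chronic ethanol had a log2 fold change of 0.11 in VS (0.735) and -0.22 in vHPC (0.467), 0.33 apart. Faah after chronic ethanol had a log2 fold change of 0.35 in dHPC (0.566) and -0.41 in vHPC (0.406), 0.77 apart. Faah after chronic ethanol had a log2 fold change of 0.35 in dHPC (0.566) and -1.002 in DS (0.346), 1.36 apart.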

How the results depend on the processing

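Of 152 estimates for a gene in a comparison, 50 changed sign under at least 1 alternative; 0 of these had passed the test, and the largest was 0.41 in size. With DESeq2, gene calls were 1 instead of 0 (dHPC acute), 1 instead of 0 (VS acute), 2 instead of 0 (dHPC chronic), 2 instead of 0 (vHPC chronic), 1 instead of 0 (DS chronic), 4 instead of 0 (vHPC interaction) and 3 instead of 2 (DS against VS). Isoform calls were 1 instead of 0 (cortex acute), 5 instead of 0 (VS acute), 2 instead of 0 (dHPC chronic), 5 instead of 0 (vHPC chronic) and 5 instead of 0 (DS chronic). The sign turned for Abhd12, VS acute (-0.0033) and Cnr1, cortex interaction (0.00039). With no filter on low counts, gene calls were 1 instead of 0 (dHPC acute), 2 instead of 1 (DS acute), 2 instead of 0 (VS acute), 3 instead of 0 (vHPC chronic), 1 instead of 0 (DS chronic), 3 instead of 0 (vHPC interaction) and 4 instead of 2 (DS against VS). Isoform calls were 2 instead of 0 (cortex acute), 10 instead of 6 (DS acute), 8 instead of 0 (VS acute), 12 instead of 0 (vHPC chronic), 7 instead of 0 (DS chronic) and 2 instead of 0 (VS chronic). The sign turned for Abhd6, VS acute (0.0034) and Cnr1, cortex interaction (0.0091). The share of all genes or isoforms that passed without the filter is not given, so these calls only describe that fit. With all 4 groups of a region fitted together, gene calls were 1 instead of 0 (DS chronic). With DS chronic saline replicate 2 kept, gene calls were 1 instead of 2 (DS against VS). The sign turned for Dagla, DS chronic (0.011), Abhd6, DS chronic (-0.16), Abhd12, DS chronic (-0.012), Abhd6, DS interaction (-0.065), Abhd12, DS interaction (-0.039), Abhd6, DS against VS (0.073) and Abhd12, DS against VS (0.033). Replicate numbers shared by ethanol and saline groups belong to different mice, and the deviations of 14 such pairs had r from -0.33 to 0.40, 5 over 0.1. So few pairs cannot show whether such mice share more than a number. With the replicate block, the sign turned for Mgll, cortex acute (-0.027), Mgll, dHPC acute (-0.0061), Cnr1, cortex chronic (0.077), Daglb, cortex chronic (0.019), Faah, cortex chronic (0.014), Cnr1, cortex interaction (0.13), Abhd12, dHPC interaction (0.029), Cnr1, DS interaction (-0.28), Dagla, DS interaction (-0.075), Daglb, DS interaction (-0.061), Napepld, DS interaction (-0.13), Cnr1, VS interaction (-0.040), Daglb, VS interaction (-0.38), Mgll, VS interaction (-0.13), Abhd6, VS interaction (-0.025) and Abhd12, VS interaction (-0.13). With DESeq2 size factors in edgeR, the sign turned for Abhd12, VS acute (-0.0030), Daglb, dHPC chronic (9.4e-05) and Cnr1, cortex interaction (0.00045). With at least 10 counts required in every sample, the sign turned for Abhd12, VS acute (-0.0023), and Dagla, DS against VS, passed (edgeR FDR = 0.0823). Leaving out 1 library at a time, gene calls ran from 1 to 2 (DS acute), 0 to 2 (vHPC chronic) and 0 to 1 (vHPC interaction). Leaving out 1 library at a time, isoform calls ran from 0 to 1 (cortex acute), 4 to 10 (DS acute), 0 to 2 (VS acute), 0 to 4 (vHPC chronic) and 0 to 2 (VS chronic). Ranges across 0 were -0.021 to 0.079 (Mgll, cortex acute), -0.11 to 0.012 (Abhd6, cortex acute), -0.0070 to 0.033 (Abhd12, cortex acute), -0.0076 to 0.10 (Mgll, dHPC acute), -0.15 to 0.26 (Cnr1, vHPC acute), -0.069 to 0.087 (Daglb, vHPC acute), -0.083 to 0.057 (Abhd6, vHPC acute), -0.057 to 0.11 (Napepld, vHPC acute), -0.0025 to 0.057 (Abhd12, DS acute), -0.18 to 0.13 (Mgll, VS acute), -0.099 to 0.071 (Abhd6, VS acute), -0.063 to 0.041 (Abhd12, VS acute), -0.053 to 0.52 (Napepld, VS acute), -0.14 to 0.13 (Cnr1, cortex chronic), -0.00049 to 0.13 (Dagla, cortex chronic), -0.072 to 0.047 (Faah, cortex chronic), -0.099 to 0.028 (Cnr1, dHPC chronic), -0.059 to 0.085 (Daglb, dHPC chronic), -0.11 to 0.087 (Abhd6, vHPC chronic), -0.048 to 0.21 (Napepld, vHPC chronic), -0.47 to 0.49 (Cnr1, DS chronic), -0.28 to 0.18 (Dagla, DS chronic), -0.10 to 0.17 (Cnr1, cortex interaction), -0.091 to 0.036 (Dagla, cortex interaction), -0.12 to 0.0084 (Faah, cortex interaction), -0.034 to 0.097 (Cnr1, dHPC interaction), -0.0083 to 0.11 (Dagla, dHPC interaction), -0.055 to 0.030 (Abhd12, dHPC interaction), -0.11 to 0.082 (Abhd6, vHPC interaction), -0.062 to 0.19 (Napepld, vHPC interaction), -0.16 to 0.83 (Cnr1, DS interaction), -0.14 to 0.35 (Dagla, DS interaction), -0.048 to 0.24 (Daglb, DS interaction), -0.0036 to 0.15 (Mgll, DS interaction), -0.0040 to 0.15 (Abhd12, DS interaction), -0.11 to 0.17 (Napepld, DS interaction), -0.29 to 0.33 (Cnr1, VS interaction), -0.17 to 0.060 (Dagla, VS interaction), -0.053 to 0.28 (Daglb, VS interaction), -0.014 to 0.051 (Daglb, cortex against dHPC), -0.10 to 0.0050 (Abhd6, DS against VS), -0.047 to 0.034 (Abhd12, DS against VS) and -0.20 to 0.032 (Faah, DS against VS). Beyond the smaller number of libraries or of genes tested, the cause was not tested.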
